A study of Mus musculus with 12 samples.

Results

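Osmolyte transport and the hyperosmotic response were described through 7 genes measured by RNA-seq in mouse CD8+ T cells: Slc6a6, Slc5a3 and Slc38a2 (transporters), Akr1b3 (osmolyte synthesis), Hspa4l (a chaperone), Nfat5 (the transcription factor of the response) and Sgk1 (a kinase). The genes were taken by symbol from the table of read counts, which held all 7 of them among 13780 genes, each in a single row. All 7 passed the filter on low counts, as did 13767 genes in all.

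Cells in a medium of raised osmolarity lose water, and they restore their volume by taking up salt and then by replacing it with small neutral molecules called organic osmolytes, among them myo-inositol, taurine, neutral amino acids and sorbitol. NFAT5, also called TonEBP, is the transcription factor best known for this switch: it induces the osmolyte transporters, aldose reductase and heat shock proteins in the kidney medulla. In lymphocytes NFAT5 is also needed for growth under salt load, and it shares a DNA-binding domain with the calcium-regulated NFAT factors.

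CD8+ T cells came from the spleens of wild-type C57BL/6J mice of 8 to 12 weeks and were purified by positive selection on magnetic beads. Naïve cells (4 libraries) were frozen straight after isolation, whereas the media group (4 libraries) and the lactate group (4 libraries) were both activated for 72 h with beads that bind CD3 and CD28 and with 10 U/ml of recombinant human IL-2. The lactate group had 40 mM sodium lactate in the medium and the media group had plain medium, so sodium, osmolarity and lactate differed together between them and cannot be told apart. The labels gave donor tags for the activated cells, by which 5 donors supplied the 8 libraries and 3 of the donors supplied both a media and a lactate library (media 1 with lactate 1, media 3 with lactate 2, media 4 with lactate 4). Library numbers in the labels fell into 2 ranges, 1 to 9 and 16 to 26. The upper range held naïve 4, media 4, lactate 3 and lactate 4. A tag such as WT2 was taken as a different donor in each range, which the labels do not state.

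The libraries held 14726904 to 21478137 counted reads, and no 2 libraries were identical. Summed levels of 5 CD8+ T cell markers (Cd8a, Cd8b1 and the Cd3 chains) lay between 1579 and 3582 CPM (counts relative to a library's total, scaled to equal depth) in all libraries. Naïve libraries also carried 498 to 1206 CPM of 5 B cell markers and 516 to 1558 CPM of 7 myeloid markers, against at most 18.4 and 0.982 CPM in any activated library, and red cell markers reached 3369 CPM in them. Naïve 4 stood apart from the other naïve libraries in genes of rapid induction: Fos was at 34.6 CPM in it and at 2388 to 2713 CPM in naïve 1 to 3. In bulk RNA, fewer cells of a type and less RNA per cell cannot be told apart.

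Levels per gene length (TPM, counts divided by gene length and scaled to a fixed sum) were compared between the genes first. Gene length here is that of all annotated exons joined (for Hspa4l 11501 bases were used, against 11792 in the annotation). A single transcript can be shorter, so the order between genes depends on this choice of length. In media cells Slc38a2 was the highest at 126 ± 16.8 TPM (SD, n = 4 here and for each group mean below), above Slc6a6 at 68.7 ± 7.03 TPM. Hspa4l at 36.2 ± 2.71, Nfat5 at 31.8 ± 4.02 and Akr1b3 at 26.2 ± 3.00 TPM followed, and the libraries of Nfat5 overlapped those of both others. Slc5a3 at 15.9 ± 4.41 and Sgk1 at 8.17 ± 11.2 TPM were lowest, and the Sgk1 libraries spread across the level of Slc5a3. Lactate cells had Slc38a2 at 125 ± 8.83 and Slc6a6 at 110 ± 20.6 TPM, a pair that overlapped in this group. Akr1b3 followed at 38.1 ± 1.48 TPM, ahead of Nfat5 at 31.4 ± 8.43 and Hspa4l at 29.9 ± 4.62 TPM, and the range of Nfat5 overlapped both of the others. Sgk1 at 19.2 ± 13.2 and Slc5a3 at 18.5 ± 4.53 TPM stood at the foot of the order with overlapping libraries. In naïve cells the order was Slc38a2 at 174 ± 25.5, Sgk1 at 98.5 ± 29.2, Slc6a6 at 83.7 ± 15.3, Akr1b3 at 36.2 ± 3.53, Nfat5 at 31.8 ± 8.74, Hspa4l at 9.58 ± 4.69 and Slc5a3 at 6.29 ± 1.73 TPM. Among naïve neighbours, Sgk1 and Slc6a6, Akr1b3 and Nfat5, and Hspa4l and Slc5a3 had overlapping libraries.

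**Figure D1:**
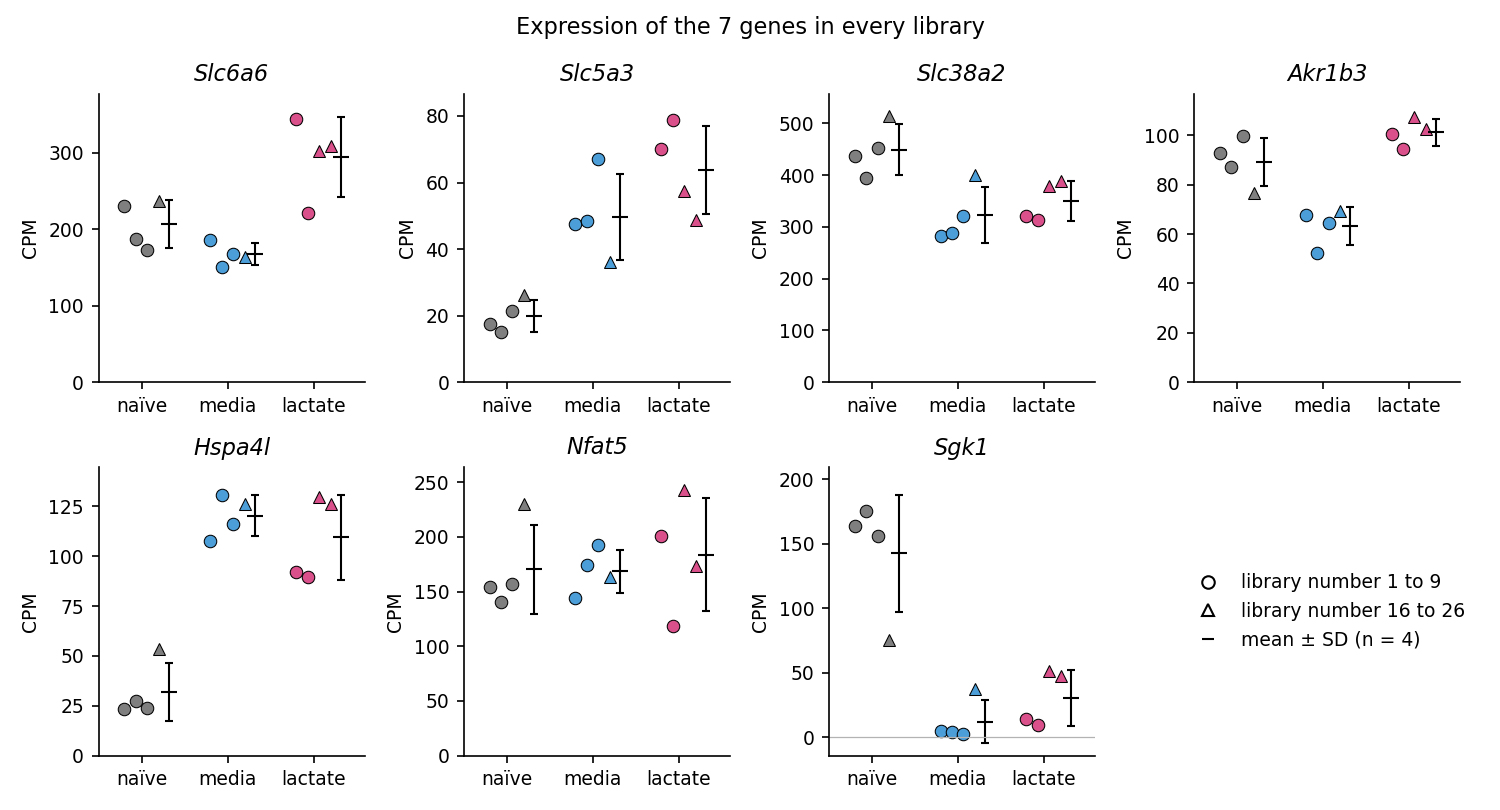
Normalised read count (CPM, linear axes) of the 7 genes in each of the 12 libraries, by group, with circles for library numbers 1 to 9, triangles for 16 to 26 and bars for the mean ± SD (n = 4). All 4 lactate libraries lie above all 4 media libraries for Slc6a6 (221 to 345 against 151 to 186 CPM) and Akr1b3 (94.5 to 108 against 52.2 to 69.3 CPM), while Sgk1 in activated cells is high in the triangles (37.1 to 51.2 CPM) and low in the circles.

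The comparison of lactate with media cells asked which of the 7 genes differed after activation with the salt present. Slc6a6, the taurine transporter, and Akr1b3, the mouse aldose reductase that makes sorbitol from glucose, were higher in lactate cells, by 1.76-fold and 1.60-fold. Slc5a3, Slc38a2, Nfat5, Hspa4l and Sgk1 did not pass the test. A gene was called at an adjusted p of at most 0.01 in edgeR's quasi-likelihood test, with Benjamini-Hochberg adjustment over the 13767 genes. By that rule 2 of the 7 genes were called, both higher, beside 25.1% of all tested genes (13.9% higher and 11.1% lower), so the share among the 7 was near the background. The median log2 fold change was 0.36 over the 7 genes and -0.0016 over all genes. For the same 2 genes the groups did not overlap, which was so for 44.7% of all genes (23.2% higher and 21.5% lower). With the donor as a block over the 12 libraries 0 of the 7 genes were called in edgeR, 3 (Akr1b3, Slc6a6 and Sgk1) had an unadjusted p under 0.05, and 992 genes were called in all (naïve libraries have no donor tag). DESeq2 and limma voom without the block called 2 of the 7. With the block over the 8 activated libraries alone, an alternative chosen after seeing the data, the same 2 genes were called. B cell markers were at 10.8 to 18.4 CPM in sum in media and at 5.59 to 7.86 CPM in lactate libraries (2 of 5 called lower), and 3 of 5 CD8+ T cell markers were called lower in lactate. Their part in the results was not tested.

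Slc6a6 carries taurine with sodium and chloride into the cell. Its gene lies on the plus strand at chr6:91684053-91759066 (GRCm38), and 1.38% of its exon bases are shared with a gene on the other strand. Slc6a6 stood at 186, 151, 168 and 164 CPM in media 1 to 4 and at 345, 221, 303 and 309 CPM in lactate 1 to 4. Every lactate library was above every media library, with lactate 2 the lowest of its group. The means were 167 ± 14.4 CPM in media and 294 ± 52.1 CPM in lactate, a log2 fold change of 0.81 with a standard error (SE) of 0.14 (edgeR, adjusted p = 0.000953). The exact permutation test over the 8 libraries gave p = 0.0286, the smallest value that 4 against 4 allows. Within donors the log2 difference was 0.89, 0.39 and 0.91, all upward. Mean log2 CPM differed by 0.72 within library numbers 1 to 9 and by 0.90 within 16 to 26, where media had 1 library. The call was lost with the donor block (log2 fold change 0.73, edgeR adjusted p = 0.0192) and in library numbers 1 to 9 alone (0.76, edgeR adjusted p = 0.0194), and was kept with the donor block over activated libraries (edgeR adjusted p = 0.00236).

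Akr1b3 lies on the minus strand at chr6:34302434-34317478 (GRCm38), and none of its exon bases is shared with another annotated gene. Media 1 to 4 had 67.6, 52.2, 64.5 and 69.3 CPM of Akr1b3, and lactate 1 to 4 had 100.5, 94.5, 107.6 and 102.6 CPM. The lactate libraries clustered closely (coefficient of variation 5.36%) and did not overlap the media libraries, among which media 2 was lowest. Akr1b3 averaged 101 ± 5.43 CPM in lactate and 63.4 ± 7.75 CPM in media, with a log2 fold change of 0.68 (SE 0.11, edgeR adjusted p = 0.000506, exact permutation p = 0.0286). The 3 donors with both libraries gave log2 differences of 0.57, 0.55 and 0.56, the narrowest range of the 7 genes. With the donor block over the 12 libraries the log2 fold change was 0.56 and missed the threshold (edgeR adjusted p = 0.0138), whereas over activated libraries alone Akr1b3 passed it (edgeR adjusted p = 0.00166). In library numbers 1 to 9 alone it was called as well (0.68, edgeR adjusted p = 0.0065), and within 16 to 26 the difference of mean log2 CPM was 0.60.

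**Figure D2:**
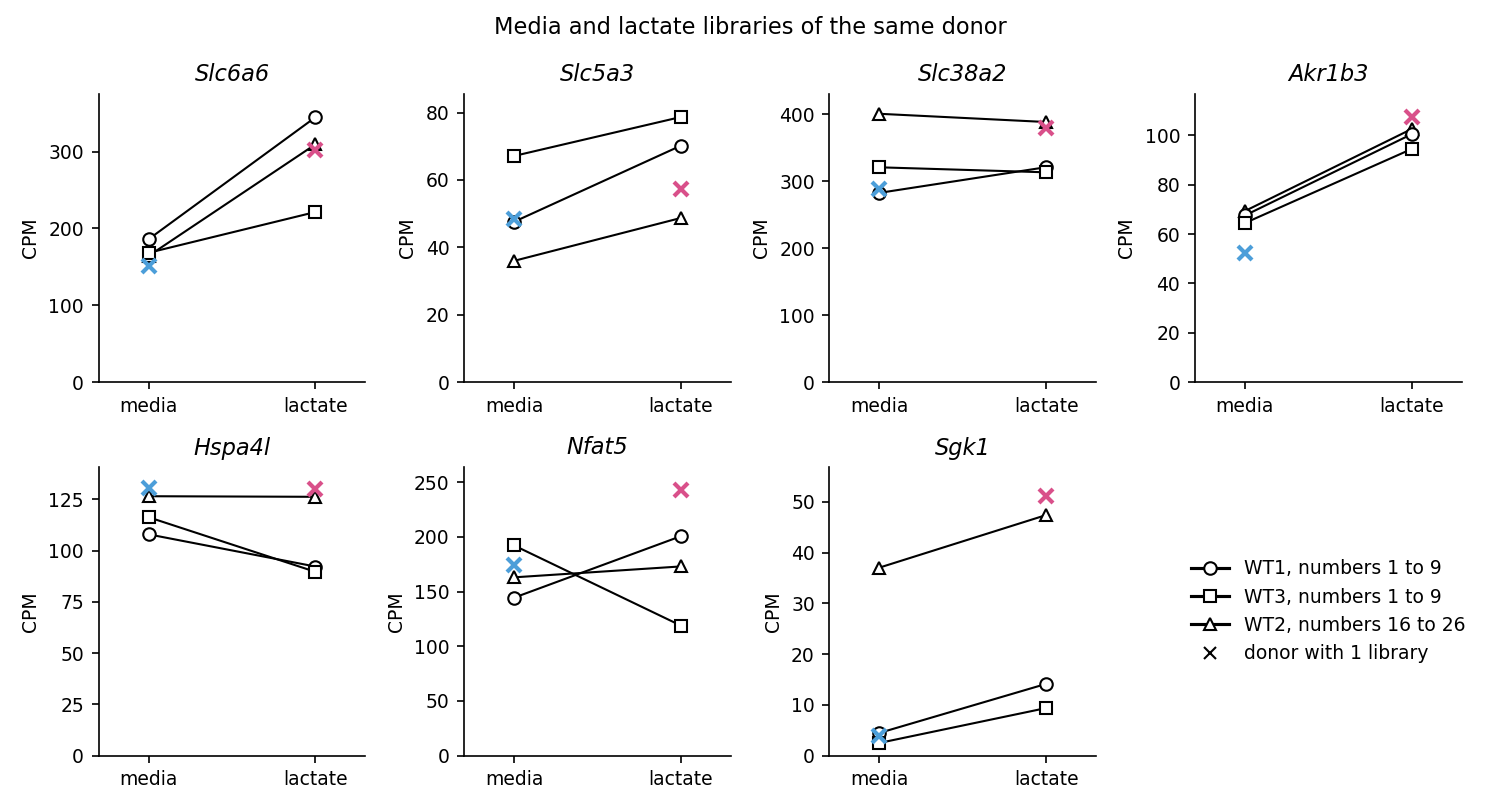
Normalised read count (CPM, linear axes from 0) of the 7 genes in media and lactate libraries, with lines joining the 3 donors that supplied both and crosses for the donors that supplied only 1 library. The 3 Akr1b3 lines are nearly parallel (log2 differences 0.55 to 0.57), and all 3 lines climb for Slc6a6, Slc5a3 and Sgk1, while Nfat5 moves in opposite directions in the WT1 and WT3 donors of library numbers 1 to 9 (0.47 and -0.69).

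Slc5a3 encodes the sodium/myo-inositol cotransporter. It had 47.6, 48.3, 67.1 and 36.0 CPM in media 1 to 4 and 70.2, 78.7, 57.4 and 48.7 CPM in lactate 1 to 4. The groups overlapped, since media 3 lay above lactate 3 and lactate 4. The means of 49.7 ± 12.9 and 63.7 ± 13.3 CPM gave a log2 fold change of 0.36 (SE 0.21) that did not pass the test (edgeR adjusted p = 0.208). Within donors the difference was positive in 3 of 3 pairs (0.56, 0.23 and 0.44 in log2), and the donor block over activated libraries gave an edgeR adjusted p of 0.0123, which also missed the threshold of 0.01.

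Slc38a2 encodes SNAT2, a system A transporter that brings in neutral amino acids with sodium. Media 1 to 4 had 282, 288, 321 and 400 CPM of Slc38a2, and lactate 1 to 4 had 321, 313, 379 and 388 CPM. The highest library of all 8 was media 4, and the groups overlapped over most of their range. Slc38a2 gave a log2 fold change of 0.12 (SE 0.13, edgeR adjusted p = 0.505).

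Hspa4l, a chaperone of the Hsp110 family first described for its induction by osmotic stress, was not called either. Its levels were 108, 131, 116 and 126 CPM in media 1 to 4 and 92.2, 89.6, 130 and 126 CPM in lactate 1 to 4. Lactate 1 and lactate 2 lay below every media library, while lactate 3 and lactate 4 lay among them. The log2 fold change was -0.14 (SE 0.24, edgeR adjusted p = 0.688).

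Nfat5 itself had 144, 174, 192 and 163 CPM in media 1 to 4 and 201, 119, 243 and 173 CPM in lactate 1 to 4. The lactate libraries held both the lowest and the highest of the 8 values. Its means of 168 ± 20.0 CPM in media and 184 ± 51.9 CPM in lactate differed by 0.13 in log2 (SE 0.20, edgeR adjusted p = 0.664). The sign of this difference was not stable: it was -0.042 with the donor block over 12 libraries. These are transcript levels, and NFAT5 is also controlled through its location and phosphorylation, which RNA-seq does not measure.

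Sgk1, a kinase that acts on sodium channels and transporters and on FOXO factors, varied more between activated libraries than any of the other 6 genes. Media 1 to 4 had 4.49, 3.82, 2.51 and 37.1 CPM of Sgk1, and lactate 1 to 4 had 14.1, 9.38, 51.2 and 47.4 CPM. The 3 activated libraries numbered 16 to 26 were all above the 5 numbered 1 to 9, and media 4 lay above lactate 1 and lactate 2. Fos followed the same split, with 48.1 to 54.6 CPM in those 3 libraries and 1.18 to 3.49 CPM in the other 5, and its part in the Sgk1 values was not tested. Over all libraries Sgk1 gave a log2 fold change of 1.37 (SE 0.79, edgeR adjusted p = 0.193). Without media 4, which leaves lactate 3 and lactate 4 with no media library of their number range, the log2 fold change was 3.06 (edgeR adjusted p = 0.00283), and in library numbers 1 to 9 alone, chosen after seeing the data, it was 1.71 (edgeR adjusted p = 0.00345). Within donors lactate exceeded media in 3 of 3 pairs, by 1.63 and 1.86 in log2 among library numbers 1 to 9 and by 0.35 in the pair of media 4 and lactate 4.

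**Figure D3:**
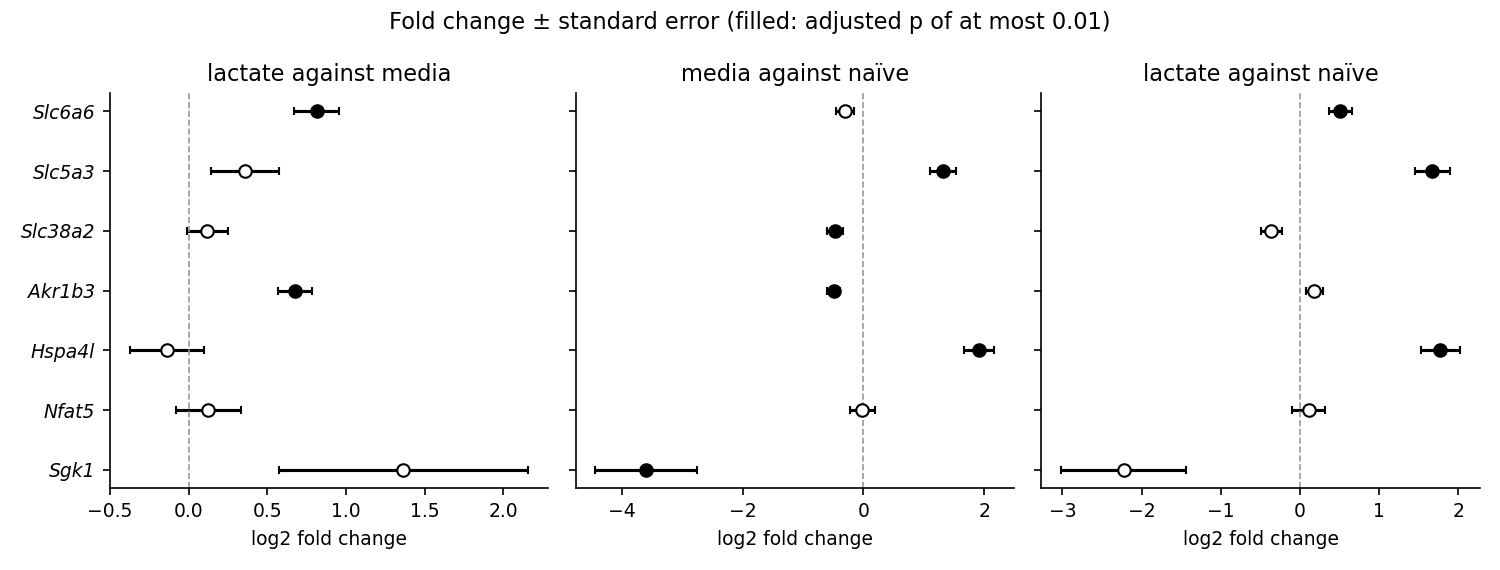
Log2 fold change ± SE of the 7 genes in the 3 comparisons, from edgeR's quasi-likelihood fit over 12 libraries (n = 4 per group), with filled points at an adjusted p of at most 0.01 and a separate scale on each x axis. Slc6a6 (0.81) and Akr1b3 (0.68) are filled between lactate and media, and Hspa4l (1.91), Slc5a3 (1.32) and Sgk1 (-3.59) lie farthest from 0 between media and naïve.

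Activation in plain medium was compared with naïve cells to see how the same genes differed without added salt. Slc5a3 and Hspa4l were higher after activation, by 2.49-fold and 3.76-fold, and Sgk1, Akr1b3 and Slc38a2 were lower. Thus 5 of the 7 genes were called, beside 57.5% of all tested genes (28.5% higher and 29% lower). The groups did not overlap for Slc5a3, Hspa4l, Akr1b3 and Sgk1, against 61.2% of all genes. Markers of B, myeloid, red, CD4+ T and NK cells were called lower in media cells throughout the lists (5, 7, 4, 3 and 2 genes tested), and 6 of 7 immediate early genes were called lower. The part of these differences in the comparisons with naïve cells was not tested. Since naïve libraries have no donor tag, the donor block cannot pair them with activated libraries. Both comparisons with naïve cells use the same 4 naïve libraries, and both comparisons of media cells use the same 4 media libraries, so their values are given side by side and not compared by a test.

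Slc5a3 stood at 17.5, 15.02, 21.3 and 26.1 CPM in naïve 1 to 4, all below the lowest activated library (36.0 CPM). Against that naïve mean of 20.0 ± 4.81 CPM the log2 fold change was 1.32 in media (SE 0.22, edgeR adjusted p = 0.000172) and 1.67 in lactate (edgeR adjusted p = 1.92e-05). Without naïve 4 the values were 1.46 and 1.82, and both stayed called.

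Hspa4l stood at 23.4, 27.2, 23.8 and 53.5 CPM in naïve cells. Naïve 4 was about 2-fold above the other 3, yet still under the lowest activated library (89.6 CPM). From a naïve mean of 32.0 ± 14.4 CPM the log2 fold change was 1.91 in media (SE 0.25, edgeR adjusted p = 2.07e-05) and 1.77 in lactate (edgeR adjusted p = 2.93e-05), or 2.27 and 2.13 without naïve 4.

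Akr1b3 stood at 92.8, 87.4, 99.6 and 76.8 CPM in naïve cells, above every media library. Lactate 1, 3 and 4 lay above every naïve library, and lactate 2 lay under naïve 3. It was lower in media than in naïve cells (log2 fold change -0.49, SE 0.11, edgeR adjusted p = 0.00134). In lactate the level was within 0.18 of naïve on the log2 scale (edgeR adjusted p = 0.138). Slc6a6 stood at 231, 187, 172 and 237 CPM in naïve cells, which overlapped the media libraries (log2 fold change -0.30, SE 0.14, edgeR adjusted p = 0.0756). Between lactate and naïve cells Slc6a6 was called higher by 0.51 in log2 (edgeR adjusted p = 0.00604), although lactate 2 lay below naïve 1 and naïve 4. That call was lost in 12 of 25 alternative analyses, for example without naïve 3 (0.35, edgeR adjusted p = 0.053), without naïve 2 (0.37, edgeR adjusted p = 0.049) and with the donor block (0.45, edgeR adjusted p = 0.0264). It was also lost without media 4, or without lactate 1, 3 or 4.

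Slc38a2 had 437, 394, 452 and 514 CPM in naïve 1 to 4. Only media 4 (400 CPM) of the activated libraries reached into that range. Slc38a2 was lower in media than in naïve cells (log2 fold change -0.48, SE 0.13, edgeR adjusted p = 0.00567), a call that was lost without naïve 4 (-0.41, edgeR adjusted p = 0.0127) and without media 1, 2 or 3 (edgeR adjusted p = 0.0155 to 0.0213). The difference between lactate and naïve was -0.36 in log2 and missed the threshold (edgeR adjusted p = 0.024), but passed it with the donor block (-0.41, edgeR adjusted p = 0.00983), without naïve 2 (-0.51, edgeR adjusted p = 0.00576) and without media 4 (-0.43, edgeR adjusted p = 0.00361).

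Sgk1 had 164, 175, 156 and 75.6 CPM in naïve cells. Naïve 4 was the lowest, and all naïve libraries lay above all activated ones. Sgk1 was lower in media than in naïve cells, with a log2 fold change of -3.59 (SE 0.84, edgeR adjusted p = 0.00211). Within library numbers 1 to 9 the difference of mean log2 CPM was -5.51, and between media 4 and naïve 4 it was -1.03. Against lactate the log2 fold change was -2.23 and missed the threshold (edgeR adjusted p = 0.0212), which it passed with the donor block (-2.85, edgeR adjusted p = 0.000252), with a term for the range of library numbers (-3.36, edgeR adjusted p = 0.000611) and without media 4 (-2.30, edgeR adjusted p = 0.00122). Immediate early genes were at 993 to 9067 CPM in sum in naïve and 473 to 1115 CPM in activated libraries, with naïve 4 the lowest naïve library in these genes too.

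Nfat5 had 154, 140, 157 and 230 CPM in naïve cells, a range that overlapped both activated groups. Its log2 fold change was -0.016 (SE 0.20, edgeR adjusted p = 0.95) in media and 0.11 (edgeR adjusted p = 0.641) in lactate. The sign of the first was positive without naïve 4 (0.16) and the sign of the second was negative without lactate 3 (-0.12).

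In lactate against naïve cells 3 of the 7 genes were called (Slc5a3, Slc6a6 and Hspa4l, all higher), beside 65% of all tested genes (33% higher and 32% lower). Slc5a3, Hspa4l, Slc38a2 and Sgk1 did not overlap between these groups, which held for 67.8% of all genes.

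The annotated starts of Slc5a3 and Mrps6, which encodes a protein of the mitochondrial ribosome, lie 52 bases apart. Slc5a3 lies at chr16:92058322-92087473 and Mrps6 at chr16:92058270-92112227, both on the plus strand of GRCm38, so that Slc5a3 lies within the span of Mrps6. Of the exon bases of Slc5a3, 159 (1.46%) are shared with Mrps6 or the annotated Gm49711, and of those of Mrps6, 305 (19.9%) are shared with Slc5a3 or Gm49711, and reads there cannot be assigned to one gene. The stretch below is shown because it precedes the start of both genes. It is the sequence of chr16:92058072-92058269 on the plus strand (198 bases, from the RefSeq promoter table for GRCm38.p6), and ends directly before the GENCODE start of Mrps6. Capitals mark the GC box letters GGGCGG, found at 4 places on this strand, of which the first pair overlap by a base.

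Slc5a3 and Mrps6 upstream: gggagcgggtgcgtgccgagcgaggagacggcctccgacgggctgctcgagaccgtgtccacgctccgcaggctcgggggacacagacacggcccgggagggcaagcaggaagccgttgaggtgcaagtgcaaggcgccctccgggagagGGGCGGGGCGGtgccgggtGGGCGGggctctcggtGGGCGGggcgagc

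Mrps6 levels followed those of Slc5a3 between groups. Mrps6 had 7.95, 7.51, 8.84 and 8.80 CPM in naïve 1 to 4, 19.7, 16.6, 22.7 and 20.8 CPM in media 1 to 4, and 25.7, 25.5, 27.9 and 25.8 CPM in lactate 1 to 4. The 3 groups did not overlap. Its log2 fold change was 1.27 from naïve to media (SE 0.12, edgeR adjusted p = 1.67e-06) and 1.66 from naïve to lactate (edgeR adjusted p = 1.28e-07), beside 1.32 and 1.67 for Slc5a3. Between lactate and media it was 0.39 (SE 0.12, edgeR adjusted p = 0.0191), beside 0.36 for Slc5a3, and neither was called.

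**Figure D4:**
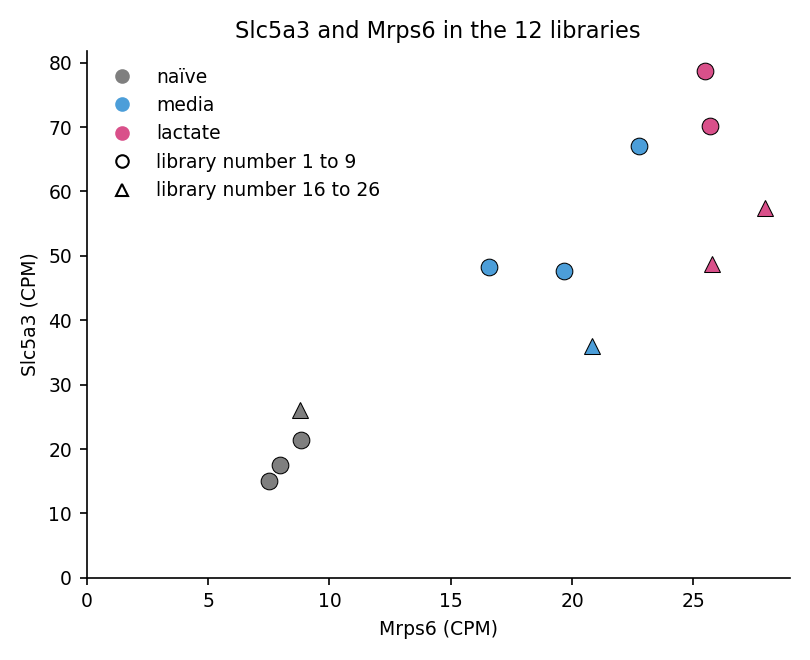
Normalised read count of Slc5a3 against that of Mrps6 (both in CPM, linear axes from 0) in the 12 libraries, coloured by group, with circles for library numbers 1 to 9 and triangles for 16 to 26. Naïve libraries lie at 7.51 to 8.84 CPM of Mrps6 and 15.02 to 26.1 CPM of Slc5a3, and on the Slc5a3 axis the activated triangles lie at 36.0 to 57.4 CPM and the activated circles at 47.6 to 78.7 CPM.

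Promoter windows of 300 bases were given by the RefSeq table for 5 of the 7 genes (Hspa4l, Nfat5, Sgk1, Slc38a2 and Slc5a3). Slc6a6 and Akr1b3, the 2 genes called between lactate and media, had no window. The tonicity-responsive element TonE, the site NFAT5 binds, was looked for on both strands. It was found in none of these windows and in 4.96% of 32851 windows of the same length. Its core TGGAAA was found in 2 of the 10 windows of these genes, both of Sgk1, against 21.4% of all windows. GC boxes stood in 6 of the 10 windows, against 35.7% of all windows, and Sgk1 supplied 6 of the 10 windows. Absence of these letters says nothing about sites elsewhere or about Slc6a6 and Akr1b3.

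Beyond the 7 genes, 79 further genes of osmolyte, volume and NFAT5 biology were listed with earlier results of these data known, and 69 of them were tested. Between lactate and media 19 were called, 10 higher and 9 lower, a share of 27.5% beside 25.1% of all genes. Their median log2 fold change was -0.13. The count was 8 with the donor block over 12 libraries, 31 without naïve 4, 32 when the lactate and media libraries were fitted alone and 13 to 31 as single libraries were left out. Between media and naïve 37 were called (11 higher and 26 lower, 53.6% beside 57.5% of all genes), and between lactate and naïve 45 (16 higher and 29 lower, 65.2% beside 65% of all genes). Of the 69 genes, 2 would have failed the filter without the lactate libraries, 3 without the media libraries and 7 without the naïve libraries.

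Enzymes of myo-inositol supply diverged between lactate and media. Isyna1, which makes inositol phosphate from glucose 6-phosphate, was higher in lactate (120 ± 5.99 against 60.2 ± 12.9 CPM, log2 fold change 1.00, edgeR adjusted p = 0.000262). Of the phosphatases that release free inositol, Impa1 was higher (68.3 ± 5.55 against 48.9 ± 3.88 CPM, 0.48, edgeR adjusted p = 0.0017). Impa2 was lower (176 ± 35.4 against 339 ± 44.7 CPM, -0.95, edgeR adjusted p = 0.0028), and 23.6% of its exon bases are shared with a gene on the other strand. Impa2 was at 13.6 ± 3.99 CPM in naïve cells, so it was still above naïve in lactate (log2 fold change 3.69, edgeR adjusted p = 2.8e-08).

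Genes of glycerophosphocholine, another osmolyte, were lower where called. Gpcpd1, which breaks it down, had 37.0 ± 1.40 CPM in lactate and 64.0 ± 12.9 CPM in media (log2 fold change -0.79, edgeR adjusted p = 0.00191). Pnpla6, which forms it from lysophosphatidylcholine, had 51.8 ± 2.23 and 66.9 ± 5.48 CPM (-0.37, edgeR adjusted p = 0.00481). The related Pnpla7 (16.9 ± 0.676 and 22.0 ± 3.58 CPM, edgeR adjusted p = 0.0503) and the hydrolase Gdpd5 (6.96 ± 0.7002 and 5.64 ± 1.80 CPM, edgeR adjusted p = 0.525) were not called. For taurine synthesis, the values in lactate and media were 13.0 ± 0.955 and 10.7 ± 1.07 CPM for Csad, 0.486 ± 0.261 and 0.654 ± 0.193 CPM for Cdo1, and 50.04 ± 11.5 and 35.0 ± 5.64 CPM for Ado, none called (edgeR adjusted p = 0.111, 0.456 and 0.0296). Sord, which turns the sorbitol made by aldose reductase into fructose, was not called either (36.0 ± 6.05 and 32.8 ± 4.29 CPM, edgeR adjusted p = 0.707). In all, 5 of the 11 tested osmolyte genes were called, 2 higher and 3 lower, beside 25.1% of all genes (13.9% higher and 11.1% lower).

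Among volume-regulated and water channels 1 of 8 tested genes was called, beside 25.1% of all genes. It was Aqp3, an aquaporin that also passes glycerol, which was lower in lactate (1.53 ± 0.620 against 4.96 ± 1.58 CPM, log2 fold change -1.68, edgeR adjusted p = 0.00227). Cation-chloride cotransport and its kinases had 3 of 12 called, 1 higher and 2 lower, a share of 25% beside 25.1% of all genes.

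Of 12 genes of osmotic signalling to NFAT5, 4 were called between lactate and media, 3 higher and 1 lower. That share of 33.3% stood beside 25.1% of all genes (13.9% higher and 11.1% lower), and the median log2 fold change of the 12 was -0.14. Map2k3, a kinase that activates p38, was higher in lactate (112 ± 10.0 against 54.5 ± 7.56 CPM, log2 fold change 1.04, edgeR adjusted p = 0.00625). Mapkapk2, a kinase downstream of p38, was higher (343 ± 23.9 against 219 ± 25.6 CPM, 0.65, edgeR adjusted p = 0.00424). Dhx9, an RNA helicase that binds NFAT5, was higher (388 ± 60.7 against 243 ± 18.9 CPM, 0.67, edgeR adjusted p = 0.000664).

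Hspa4, a close relative of Hspa4l, was the single call between lactate and media among 8 osmoprotective chaperones, beside 25.1% of all genes. It was higher in lactate (577 ± 48.5 against 305 ± 31.0 CPM, log2 fold change 0.92, edgeR adjusted p = 8.23e-05), while Hspa4l was at 109 ± 21.5 and 120 ± 10.3 CPM. Hsph1 (200 ± 42.0 against 62.6 ± 14.6 CPM, 1.67, edgeR adjusted p = 0.0189) and Hsp90aa1 (660 ± 69.4 against 372 ± 47.6 CPM, 0.83, edgeR adjusted p = 0.0387) missed the threshold. Lactate and media libraries did not overlap for Hspa4, Hsph1 and Hsp90aa1, 3 of the 8, all higher in lactate, beside 44.7% of all genes (23.2% higher). Between media and naïve cells 6 of these 8 chaperones were called, beside 57.5% of all genes. Hspa4 was higher in media by 0.44 in log2 (edgeR adjusted p = 0.00202), and the other 5 were lower. The lower genes, named after their values were seen, were Hsph1, Hspa1a, Hspa1b, Hspb1 and Dnajb1. Of these, Hspa1a and Hspa1b are near-identical copies between which reads may be divided. Among these 5 genes, only Hsph1 had media and naïve libraries that did not overlap. Naïve levels varied widely, with 1626 ± 1148 CPM for Hspa1a, 3060 ± 2193 for Hspa1b, 13.9 ± 12.9 for Hspb1 and 964 ± 629 for Dnajb1. Hspb1 passed the filter on low counts only through the naïve libraries, where it is high, so its call depends on that group.

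Of 4 NFAT5 targets described in lymphocytes 2 were called, both higher in lactate, beside 25.1% of all genes (13.9% higher and 11.1% lower). The other 2, Ltb and Cd24a, were not called (log2 fold change -0.26 and 0.88, edgeR adjusted p = 0.122 and 0.114). The cytokine gene Tnf had 58.7 ± 21.1 against 15.9 ± 6.62 CPM (log2 fold change 1.88, edgeR adjusted p = 0.000945). S100a4 had 2.11 ± 0.771 against 0.287 ± 0.0895 CPM (2.86, edgeR adjusted p = 0.000349), a low level, with 51.7% of its exon bases shared with a gene on the same strand. Of 6 tested genes around the SGK kinases 2 were called, both lower, beside the same 25.1% of all genes. Ndrg1, a substrate of SGK1, had 181 ± 64.4 against 474 ± 82.7 CPM (-1.39, edgeR adjusted p = 0.00103), and Foxo3, a transcription factor that SGK1 phosphorylates, had 97.4 ± 15.3 against 170 ± 30.1 CPM (-0.80, edgeR adjusted p = 0.000835). Of 8 tested relatives of the 7 genes 1 was called, beside 25.1% of all genes. Akr1b8, an aldo-keto reductase close in sequence to Akr1b3, was higher in lactate (2.89 ± 0.981 against 0.679 ± 0.273 CPM, log2 fold change 2.05, edgeR adjusted p = 0.00124). It passed the filter on low counts only through the lactate libraries, where it is high, so this call depends on that group. Reads of such near relatives may be divided between them, and the level of Akr1b8 was low beside that of Akr1b3.

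**Figure D5:**
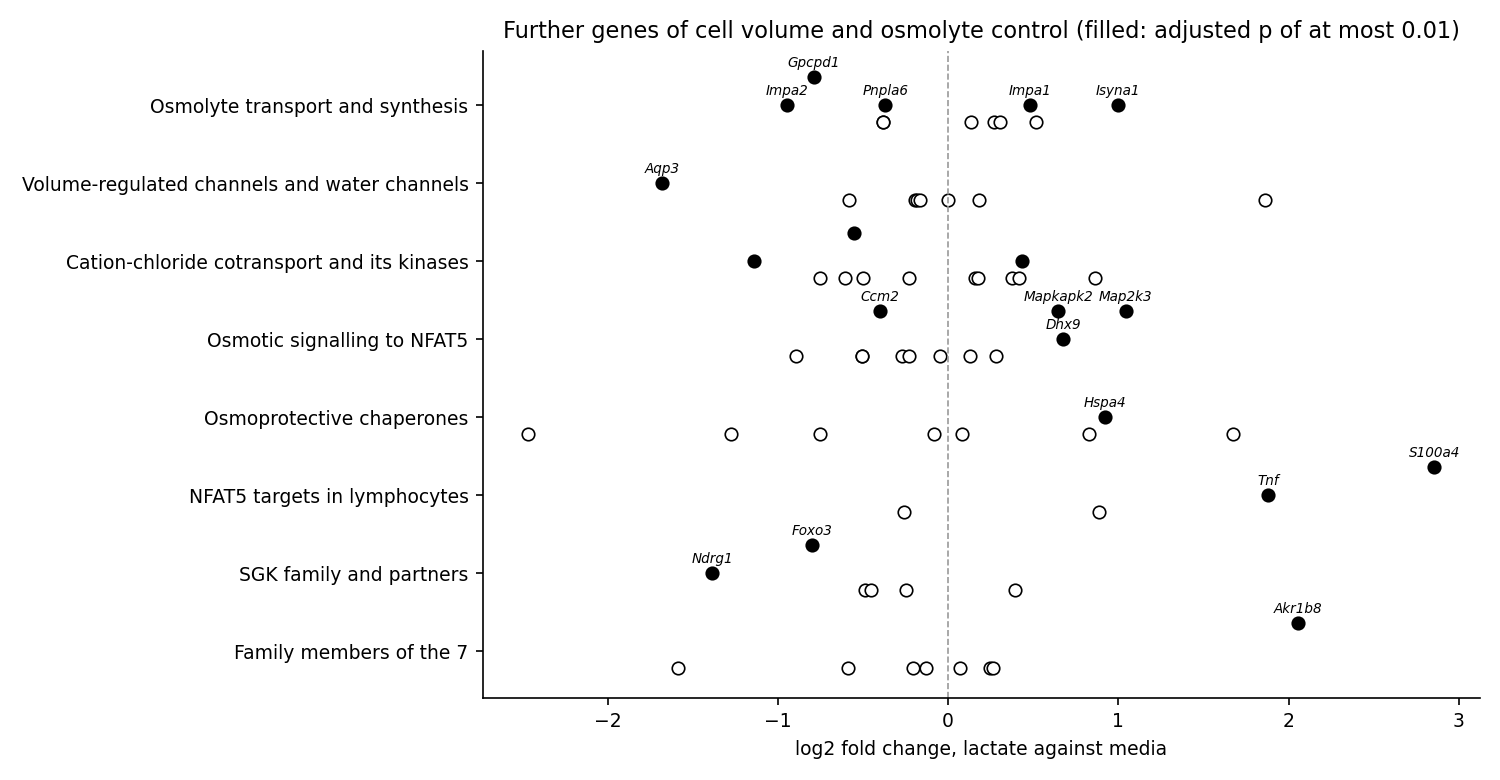
Log2 fold change between lactate and media (x axis) of the 69 tested further genes, by group (rows), with filled points, most of them named, for an adjusted p of at most 0.01 in edgeR's quasi-likelihood test (n = 4 per group). The 19 filled points fall on both sides of 0, from Aqp3 at -1.68 to S100a4 at 2.86.

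The genes most like each of the 7 in level over the 12 libraries were listed as a description, by Pearson's r of log2 CPM among 10312 genes with a mean of at least 5 CPM. Libraries of a group share their treatment, so the group differences enter each r. For Slc6a6 they were Fam20b (r = 0.962), Rab7 (0.958) and Ube3c (0.956). For Akr1b3 they were Snhg17 (0.97), D8Ertd738e (0.969) and Cox10 (0.969). Slc5a3 was closest to Selenoi (0.981), Lsm12 (0.975) and Cldn12 (0.974), and Slc38a2 to Rbm48 (0.963), Sirt1 (0.961) and 2410004B18Rik (0.96). Hspa4l was closest to Tnip3 (0.993), Poc1b (0.991) and Cog6 (0.99), and Sgk1 to Rhob (0.99), Ier5 (0.982) and Tob2 (0.975). Ubxn2a (0.867) and Copa (0.862) were among the 3 closest to Nfat5.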

How the data were processed

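RNA-seq of 12 libraries was analysed from the deposited table of raw counts, whole numbers of reads per gene that the authors obtained by aligning reads with STAR (version 2.7.5b per the labels' processing notes) to GRCm38 and counting with featureCounts. The library kit keeps strand, but whether featureCounts was run with strand is not given in the sources used here. Totals of 14726904 to 21478137 reads set the depth, and the common biological coefficient of variation was 23.5%. Column names matched the sample labels, and 0 columns were left unmapped.

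The filter on low counts asked for 1 CPM or more in at least 3 libraries, which left 13767 of 13780 genes. Counts were scaled by TMM and fitted with edgeR 4.0.16 (R 4.3.3) by the quasi-likelihood method, with 3 groups over all 12 libraries. Each SE was obtained from the size of the log2 fold change over the root of its F value. CPM values use TMM library sizes, and TPM used the gene lengths in the table. The exact permutation test was two-sided, over 70 arrangements of mean log2 CPM (prior count 2).

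The labels give a donor tag to each activated library. The 3 same-donor pairs deviated together from their group means (r = 0.374, 0.211 and 0.553). Of the different-donor pairs examined, media 2 with lactate 2, in the same range of library numbers, gave r = 0.297. Media 3 with lactate 3, in different ranges, gave r = 0.0038. Since 0.297 lies above 0.211, these values do not separate a shared donor from a shared range. The donor was fitted as a block in alternatives only, and the main fit had no block. In that block naïve libraries had no donor term, so comparisons with naïve cells were not paired by donor. p-values measure the spread between these libraries, and the paper states that each condition had RNA of 4 separate mice, although the labels tag no donor for naïve libraries.

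Alternatives were DESeq2 1.42.0, limma 3.58.1 (voom), other scalings and filters, blocks by title number and donor, a term for library numbers, and each library left out. The 7 genes and the wider list were chosen with earlier results of these data known. From that list the text names the 15 largest called changes between lactate and media, all tested osmolyte genes, and the 3 most similar genes per member. A few of these are not reported here. Gene positions are from GENCODE M21 (13765 of 13780 identifiers matched), promoters from RefSeq.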

Additional observations from a re-analysis of the deposited data

Results flagged for a closer look

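Of 21 sets of 4 libraries (7 genes in 3 groups), 2 held a library far from the other 3 by Dixon's test at the 95% level, where chance alone would give about 1.05. Sgk1 in media 4 was at 37.1 CPM, and the other media libraries were at 2.51 to 4.49 CPM. Fos in media 4 was at 54.6 CPM, beside 1.84 to 3.49 CPM in media 1 to 3, and its part in the Sgk1 value was not tested. Without media 4 the log2 fold change of Sgk1 between lactate and media was 3.06 (edgeR adjusted p = 0.00283) instead of 1.37 (edgeR adjusted p = 0.193), but lactate 3 and lactate 4 then had no media library of their number range. In library numbers 1 to 9 alone it was 1.71 (edgeR adjusted p = 0.00345), and in the pair of media 4 and lactate 4 the log2 difference was 0.35. Hspa4l in naïve 4 was at 53.5 CPM, and the other naïve libraries were at 23.4 to 27.2 CPM. Without naïve 4 Hspa4l stayed called against naïve cells, with a log2 fold change of 2.27 in media and 2.13 in lactate. Both libraries carry numbers in the range 16 to 26.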

How the results depend on the processing

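Of the 7 genes, Slc5a3 and Hspa4l kept their call against naïve cells, and Akr1b3 and Sgk1 theirs between media and naïve, in all 25 alternatives. Between lactate and media Akr1b3 kept its call in 25 of 26 and Slc6a6 in 24 of 26. With the replicate block by donor 0 of the 7 were called between lactate and media in edgeR (3 at an unadjusted p under 0.05, against 2 calls in the report, by DESeq2 and by limma voom) and 8 of the wider list (19 in the report). The replicate block by title number left 2 called between lactate and media and gave 5 between lactate and naïve (3 in the report), as did a term for library numbers and an adjusted p of at most 0.05. That threshold gave 29 of the wider list between lactate and media, and a fit of these 2 groups alone gave 32. Leaving out single libraries gave 2 to 3, 4 to 5 and 2 to 4 of the 7 (lactate against media, media against naïve, lactate against naïve), and 13 to 31, 31 to 44 and 39 to 48 of the wider list. The 31 between lactate and media came without naïve 4. Nfat5, never called, changed sign. Between lactate and media it was -0.042 with the donor block, -0.036 with that block over activated libraries, -0.082 in library numbers 1 to 9 and, with single libraries left out, -0.039 (lactate 3) to 0.29 (lactate 2). Between media and naïve it was 0.10 with the donor block, 0.013 with the library number term, 0.11 in library numbers 1 to 9, 0.0023 by limma voom, and, with single libraries left out, -0.18 (naïve 2) to 0.16 (naïve 4). Between lactate and naïve it was -0.12 (lactate 3) to 0.28 (naïve 4) with single libraries left out. The cause was not tested. Other scalings moved the median of all genes by -0.0953 to 0.00857 in log2. Over all genes, calls between lactate and media numbered 992 with the donor block, 2077 in library numbers 1 to 9, 2252 without media 2 and 5461 at an adjusted p of at most 0.05 (3451 in the report). At 45 to 97 counts in media 1 to 3, Sgk1 was the gene of the 7 most limited by depth.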
